A study of Mus musculus with 7 samples.

Results

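The 962 kb of mouse chromosome 5 from Shh to Lmbr1 held 6 of the 15347 peaks of histone deacetylase 1 (HDAC1) that the authors listed for embryonic limb buds. They are every peak of the list with at least 1 bp between 20 kb before the first and 20 kb after the last base of the span occupied by Shh, Rnf32 and Lmbr1, chr5:28436815-29398390 of the mm10 build (GRCm38). The rule uses gene names and positions alone and no measured value. Of these peaks, 5 lay inside Shh and 1 lay at the promoter of Lmbr1. None touched Rnf32 or the 729 kb without protein-coding genes between Shh and Rnf32. The intron of Lmbr1 that carries the limb enhancer of Shh, the zone of polarizing activity regulatory sequence (ZRS), was without a peak too.

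Chromatin immunoprecipitation followed by sequencing (ChIP-seq) recovers the DNA that an antibody against a protein brings down from fixed chromatin. It was applied to wild-type Swiss Webster embryos at E11.5 with 40 to 44 somites, with forelimb and hindlimb buds pooled from 3 litters, and gave 4 HDAC1 samples and 3 input samples of chromatin without antibody. No mutant or treated limb bud was part of this experiment. The authors combined all samples into a single ranked list of peak positions. The deposited list has columns for position alone, so from it no peak has a replicate error, the depth behind a peak is unknown, and nothing below is tested. The study's source data describe an enrichment and a false discovery rate for each peak, which were not used here. The order of the list serves here as the measure of strength, with rank 1 first, and a region without a peak is one where none was called, which is not the same as HDAC1 being absent. Whole limb buds were used, so HDAC1 on fewer cells and less HDAC1 per cell cannot be told apart, and a list of positions measures no expression with which to check the tissue against its markers.

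Sonic hedgehog, encoded by Shh, is the signal of the zone of polarizing activity, a small group of posterior mesenchyme cells that patterns the digits. Its transcription there depends on the ZRS, which lies far away inside an intron of Lmbr1, a gene for a membrane protein. Between them lie Rnf32, which encodes a RING finger protein, and a gene desert with further Shh enhancers for the brain, the oral epithelium, the lung and the gut. HDAC1 takes acetyl groups off histone tails as part of several corepressor complexes, and it is found both at repressed genes and at active promoters.

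The sequences that the locus turns on are given 5′ to 3′ from the RefSeq assembly of GRCm38, and for both promoters from the RefSeq promoter table of the same build. The first is the middle of the best-ranked peak in Shh, which ranked 879, at chr5:28465325-28465624 on the plus strand, with capitals at exact matches of an SP/KLF and a CCAAT motif.
Shh intron 1 peak: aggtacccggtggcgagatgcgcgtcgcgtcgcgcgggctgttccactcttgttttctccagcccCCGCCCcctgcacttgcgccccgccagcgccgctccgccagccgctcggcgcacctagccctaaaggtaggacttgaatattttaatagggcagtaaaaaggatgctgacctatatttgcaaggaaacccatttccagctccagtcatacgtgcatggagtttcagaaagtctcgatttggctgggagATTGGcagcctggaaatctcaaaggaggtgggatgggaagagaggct
The next shows the small peak in intron 2 of Shh and the 50 bases after it, chr5:28459100-28459399 on the plus strand, with capitals at HR-c, a fragment that RefSeq annotates within a floor plate enhancer.
Shh intron 2 peak: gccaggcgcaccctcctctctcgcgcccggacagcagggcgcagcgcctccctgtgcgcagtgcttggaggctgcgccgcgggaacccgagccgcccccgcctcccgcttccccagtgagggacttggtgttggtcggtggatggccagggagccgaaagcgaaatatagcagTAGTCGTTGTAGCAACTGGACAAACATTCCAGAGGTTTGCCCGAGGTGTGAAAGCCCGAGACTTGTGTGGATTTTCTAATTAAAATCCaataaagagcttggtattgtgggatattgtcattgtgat
The third is a stretch of the ZRS, chr5:29315050-29315349 on the plus strand, where no HDAC1 peak was called. Capitals mark the 2 ETS and 4 Hox sites annotated by RefSeq in this stretch, of which a pair of Hox sites share bases.
ZRS: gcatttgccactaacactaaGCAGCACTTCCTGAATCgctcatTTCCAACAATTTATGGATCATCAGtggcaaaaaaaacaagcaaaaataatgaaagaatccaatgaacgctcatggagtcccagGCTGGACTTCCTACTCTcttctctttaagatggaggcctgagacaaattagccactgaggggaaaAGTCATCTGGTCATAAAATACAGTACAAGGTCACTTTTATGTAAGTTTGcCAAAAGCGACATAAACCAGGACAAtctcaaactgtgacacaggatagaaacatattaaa
The last sequences are the 250 bp upstream of the RefSeq starts of Lmbr1, chr5:29378391-29378640 on the minus strand, and of Rnf32, chr5:29195743-29195992 on the plus strand, one with and one without a peak. Capitals mark matches of GGGCGG, read on both strands, and in Rnf32 of the NRF1 motif GCGCATGC.
Lmbr1 promoter: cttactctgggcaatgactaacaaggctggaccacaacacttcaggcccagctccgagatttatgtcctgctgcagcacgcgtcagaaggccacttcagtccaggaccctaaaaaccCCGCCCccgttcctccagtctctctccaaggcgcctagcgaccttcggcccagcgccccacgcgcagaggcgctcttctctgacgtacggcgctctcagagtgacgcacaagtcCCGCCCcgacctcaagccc
Rnf32 promoter: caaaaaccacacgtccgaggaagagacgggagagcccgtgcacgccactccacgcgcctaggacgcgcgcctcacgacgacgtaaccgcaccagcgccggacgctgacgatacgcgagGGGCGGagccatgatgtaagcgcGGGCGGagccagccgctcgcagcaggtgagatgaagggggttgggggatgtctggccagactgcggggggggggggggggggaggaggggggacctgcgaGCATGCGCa
The GC content of the 5 stretches was 57.0% in the intron 1 peak of Shh, 58.0% around its intron 2 peak, 39.7% in the ZRS, 62.0% upstream of Lmbr1 and 70.0% upstream of Rnf32. The ZRS stretch had 3 CpG dinucleotides, the fewest of the 5, and the Rnf32 stretch had 29, the most. Both promoters are thus rich in CpG, and the one without a peak is the richer. Of the 250 bp upstream of Lmbr1, 159 bp (63.6%) lay inside its peak, and of those upstream of Rnf32 none did.

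In Shh (ENSMUSG00000002633.4, chr5:28456815-28467256, minus strand), the 5 peaks together covered 4500 bp of the 10442 bp gene, which is 43.1%. They fell into 2 long peaks of high rank, at either end of the gene, and 3 short peaks of middle or low rank between them.
The first long peak, chr5:28464150-28466799, ranked 879, within the first 5.73% of the list, and was 2650 bp long, longer than 98.6% of all peaks. It covered 2311 bp of intron 1 (87.2% of the peak) and 339 bp of exon 1, of which 303 bp are coding. Its edge was 457 bp downstream of the transcription start site (TSS) of Shh, so the start itself was not covered. It did cover the TSS of Gm26894, a long noncoding RNA that starts inside Shh on the opposite strand.
The second long peak, chr5:28457850-28458899, ranked 927, within the first 6.04%, and measured 1050 bp, longer than 84.0% of all peaks. It lay 8357 bp from the TSS at the 3′ end of the gene, with 754 bp (71.8%) in exon 3 and 296 bp in intron 2, and 746 bp of it were coding. A start site of 9530036O11Rik, a noncoding RNA antisense to Shh that runs on through the desert for 475722 bp in all, also lay in this peak. With this unstranded measurement, HDAC1 at Shh and at the antisense starts cannot be told apart.

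**Figure D1:**
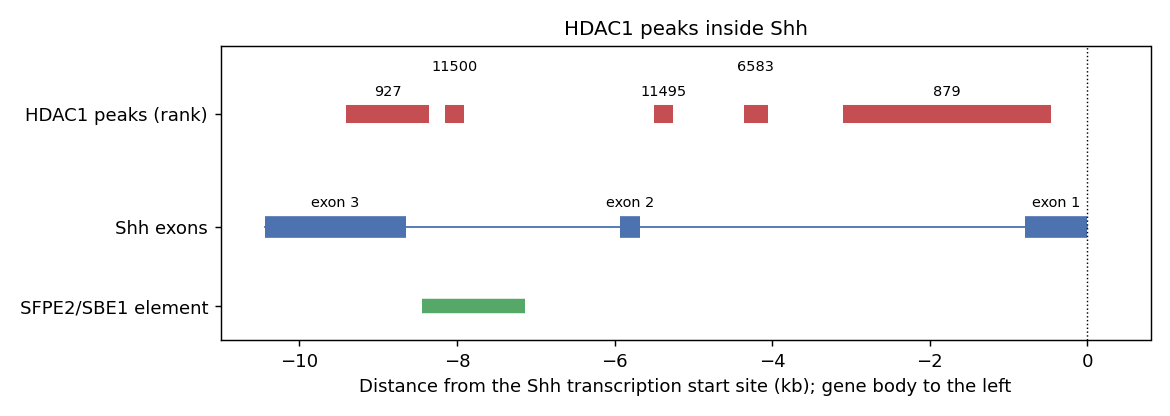
HDAC1 peaks (red, with their rank in the list), Shh exons (blue) and the RefSeq SFPE2/SBE1 element of intron 2 (green), plotted by distance in kb from the Shh TSS, which the dotted line marks. The 2650 bp peak of rank 879 ends 457 bp inside the gene, and the peaks ranked 927 and 11500 reach into the element.

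The short peaks were 250 to 300 bp long. That of rank 6583 (chr5:28462900-28463199) and that of rank 11495 (chr5:28461750-28461999) lay wholly in intron 1, at 4057 and 5257 bp from the TSS. That of rank 11500 (chr5:28459100-28459349) lay wholly in intron 2, at 7907 bp from the TSS and only 200 bp from the second long peak. The next shortest distances between neighbouring peaks of the gene were 900 and 950 bp, and the widest was 2400 bp.
The peaks also differed in sequence. Observed over expected CpG was 0.97 in the exon 3 peak, 0.79 in the intron 2 peak and 0.70 in the long intron 1 peak, against 0.76 for the median of all HDAC1 peaks. The short intron 1 peaks had 0.53 at rank 6583 and 0.06 at rank 11495, so the peak with the least CpG shared almost its rank with the intron 2 peak. GC content ran from 51.2% at rank 11495 to 67.0% in the exon 3 peak, with a median of 62.9% over the list.

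**Figure D2:**
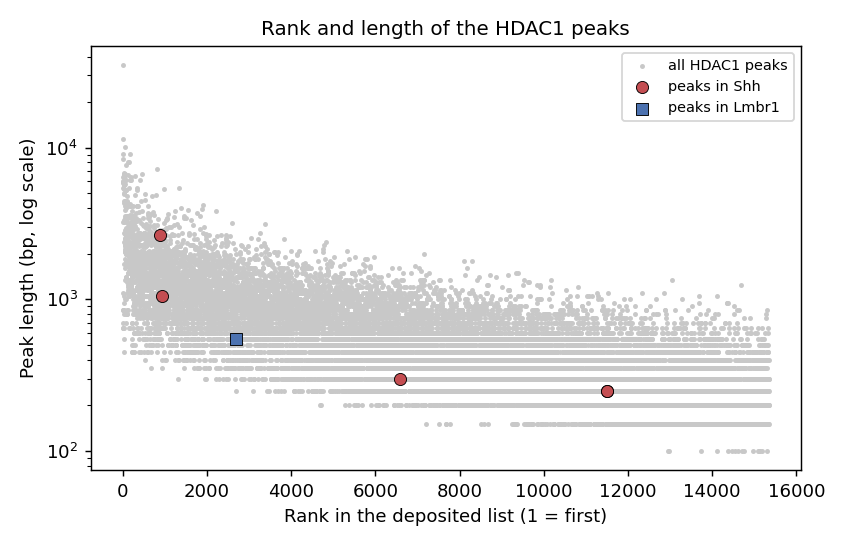
Length in bp (log axis) against rank for all 15347 HDAC1 peaks (grey), with the 5 peaks in Shh (red circles) and the peak in Lmbr1 (blue square). The long Shh peaks of rank 879 and 927 sit near the left end, and the peaks ranked 11495 and 11500, both 250 bp long, fall on the same point.

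Few genes of this size carried as many peaks. Among the 7639 protein-coding genes of 5 to 20 kb, 25 (0.327%) had at least 5 peaks, and 37 (0.484%) had at least 43.1% of their length in peaks, while the median gene had none. This comparison was chosen after the peaks of Shh had been seen. Neighbouring peaks of Shh lay as little as 200 bp apart, and the counts per gene were not repeated with near peaks joined. The 25 include genes of many kinds, among them Tbx2, Msx2, Igf2, Bbc3 and Scarf2, and no shared function was tested. Of these, Tbx2, the gene of a T-box factor, had 8 peaks over 77.7% of its length, and Msx2, the gene of a homeodomain factor, had 5 peaks over 43.2%. Both introns of Shh held a peak outside every TSS window, where a TSS window takes in 2 kb before and 1 kb after each protein-coding start. Of all 109405 introns of at least 1 kb, 1.31% held such a peak.

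Of the 3 genes, Shh and Lmbr1 had a peak in a TSS window and Rnf32 had none, beside 44.1% of all 21938 protein-coding genes (9676 genes with a peak). A count over 3 genes is too small to be read against that share. The peaks of both genes stood well forward in the list, since the median of the best-ranked TSS peak over the 9676 genes was rank 5181. At Shh it was 879, and 9.08% of these genes had a rank as good or better, while at Lmbr1 it was 2684 and the share was 27.1%.
At Lmbr1 (ENSMUSG00000010721.15, chr5:29229802-29378390, minus strand), the peak chr5:29378000-29378549 was 550 bp long and covered the TSS of all 5 annotated coding transcripts, which start between 29378302 and 29378390. Its GC content was 66.5% and its observed over expected CpG 0.91. It contained all 258 bp of exon 1 and 127 bp of intron 1, and 391 bp of it lay in the gene, or 0.263% of 148589 bp. The divergent noncoding gene 4632411P08Rik starts 150 bp beyond its edge.
At Shh no TSS base was covered, and the call rests on the long peak that starts 457 bp inside the gene. That is a common arrangement, as for 2476 of the 9676 genes with a TSS peak (25.6%) no peak covered the base of any start. If the start itself had to be covered, only Lmbr1 of the 3 genes would count.
At Rnf32 (ENSMUSG00000029130.12, chr5:29195992-29228457, plus strand), the nearest peak was that of Lmbr1. It lay 182003 bp from the start of the first transcript and 179994 bp from the closest of the 3 coding starts.

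Shh and Rnf32 each differed from most genes of like CpG content. Protein-coding genes were divided into 10 groups of about equal size by observed over expected CpG in the TSS window of 1 transcript each, and the share with an HDAC1 peak went from 0.866% in the lowest group to 96.4% in the highest. Rnf32, with 0.60, fell in group 9, where 1967 of 2193 genes (89.7%) had a peak and it had none. Shh, with 0.31, fell in group 4, where only 222 of 2194 genes (10.1%) had a peak, and it had 1. Its value was close to the upper edge of that group, 0.32, and in group 5 the share was 29.2%. The peak itself, which runs on past the TSS window of Shh, had an observed over expected CpG of 0.70. Lmbr1, with 0.55, was in group 8, where the share was 83.8%, and had a peak as most of its neighbours there did. GC content of the same windows was 50.7% at Shh, 47.1% at Rnf32 and 53.2% at Lmbr1.

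**Figure D3:**
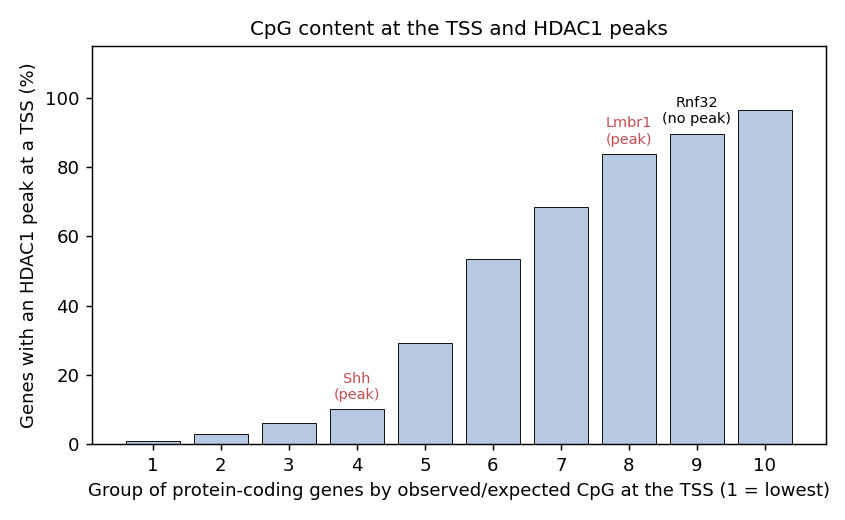
Percent of protein-coding genes with an HDAC1 peak in the TSS window of any coding transcript (bars). The 10 groups rise in observed over expected CpG in the TSS window of 1 transcript per gene. The groups of Shh, Rnf32 and Lmbr1 are named. Rnf32 has no peak in a group where 89.7% of genes have one, and Shh has a peak in a group where 10.1% do.

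The desert between Shh and Rnf32, chr5:28467257-29195991, contained no HDAC1 peak in 729 kb. Such emptiness was ordinary. Of the 728 gaps of at least 500 kb between protein-coding genes, 48.2% held a peak and 377 (51.8%) held none, and 246 of the empty ones were at least as long. The gaps include those on the sex chromosomes, and how well reads can be mapped in each was not examined. Among the 6 gaps next to that of Shh and Rnf32 in the order of length, on either side, that on the X chromosome between Xlr and Gm16405 (734 kb) was also empty. The others held 1, 1, 2, 2 and 6 peaks. The 6 were in the 727 kb before Hand2, the gene of a basic helix-loop-helix factor that acts on Shh in the limb bud. The most peaks per 100 kb were in the gap between Thap1 and Zfp703, with 15 peaks in 813 kb or 1.84 per 100 kb. It was followed by the gap between Npvf and Nfe2l3 with 12 peaks.
Seen from peak to peak, 911200 bp separated the last peak of Shh from that of Lmbr1, a distance reached by 516 of the 15326 gaps between neighbouring peaks (3.37%), where the median was 46 kb. On chromosome 5, 34 of 978 gaps were as long. Counted over the whole window, the 6 peaks came to 0.624 per 100 kb, close to the 0.563 per 100 kb of the genome, because those of Shh stood so close together.

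**Figure D4:**
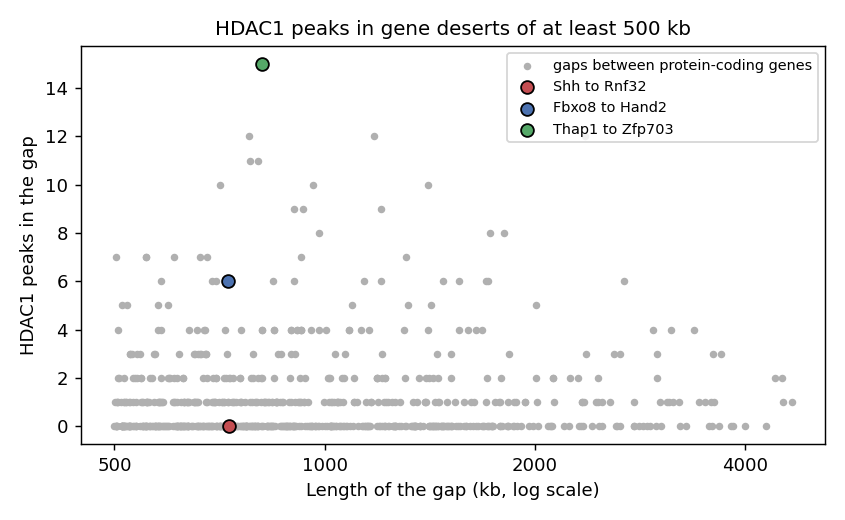
Number of HDAC1 peaks against length in kb (log axis) for the 728 gaps of at least 500 kb between protein-coding genes (grey), with the gap from Shh to Rnf32 (red, 0 peaks), the gap before Hand2 (blue, 6 peaks) and the gap with most peaks per 100 kb (green, 15 peaks).

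Lmbr1 has 16 introns, and its only peak, at the promoter, touched no intron but the first. None of its 12 introns of at least 1 kb held a peak outside TSS windows, nor did any of the 4 such introns of Rnf32. For long introns the share is higher, as 8.50% of 8250 introns of at least 20 kb held one, so an empty intron remains the usual case for the 3 introns of Lmbr1 of that length. Intron 5 (chr5:29292950-29323801, 30852 bp), which holds the ZRS, lay 54199 bp from the nearest peak.
The ZRS itself (chr5:29314497-29315862, 1366 bp) is 847 kb upstream of the Shh TSS and was 62138 bp from the nearest HDAC1 peak, that at the Lmbr1 promoter. Each of its annotated parts was without a peak, from the ETS sites and the sites for HOXD factors to the fragment that binds HAND2. RefSeq lists 184 mouse enhancers whose text names the limb, and 46.7% of them overlapped an HDAC1 peak. Outside TSS windows it was 80 of 178 (44.9%), so the ZRS is 1 of 98 such limb enhancers that lay away from a TSS and had no peak. RefSeq enhancers are elements that have been tested by experiment and do not stand for all enhancers.

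Of the 11 enhancers that RefSeq annotates in the window, 1 overlapped an HDAC1 peak, beside 19.4% of all 813 annotated mouse enhancers. Only the ZRS among them is annotated for the limb. For the other 10, which act in the nervous system, the oral epithelium, the airway or the gut, 1 with a peak is close to the 11.4% of the 629 enhancers without limb activity, and nothing is read from the count. These comparisons were also added after the list had been opened.
The enhancer with a peak is the bipartite SFPE2/SBE1 element in intron 2 of Shh (chr5:28458815-28460113), which drives Shh in the floor plate and the ventral midbrain. The peaks ranked 927 and 11500 covered 335 of its 1299 bp (25.8%), all on the side towards exon 3. Within it, 310 of 716 bp of SFPE2 (43.3%) and 77 of the 88 bp of HR-c (87.5%), shown in capitals in the intron 2 sequence above, lay in peaks. The homeobox site of HR-c began 1 bp past the edge of the peak, and SBE1, the 513 bp part active in the midbrain and diencephalon, lay 252 bp beyond it with none of its bases covered. The 2 annotated forkhead sites were 236 and 462 bp away.
The others are spread along the desert. SFPE1, a floor plate enhancer, was nearest to a peak, at 9291 bp, and begins 8.83 kb upstream of the Shh TSS. The lung and gut enhancer SLGE begins 95.4 kb upstream and was 95.8 kb from a peak. The forebrain enhancers SBE4, SBE2 and SBE3, at 318, 408 and 425 kb, were 318, 409 and 426 kb from the nearest peak. Beyond them, MRCS1 of the oral epithelium (618 kb upstream), MFCS3 of brain and motor neurons (679 kb) and MFCS4 of the palate and pharynx (720 kb) were 291, 231 and 190 kb from the Lmbr1 peak. MACS1, active in the respiratory and digestive tubes and placed inside Rnf32, was 165 kb from it.

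**Figure D5:**
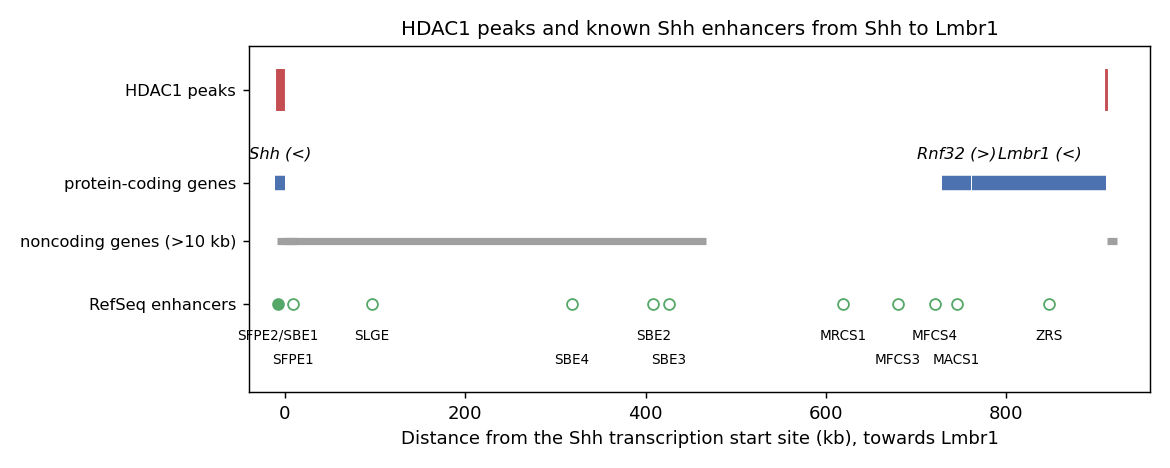
HDAC1 peaks (red), protein-coding genes (blue, with their direction of transcription), noncoding genes longer than 10 kb (grey) and RefSeq enhancers (green) by distance in kb from the Shh TSS. The only filled circle is the SFPE2/SBE1 element, the one enhancer with a peak, and no peak was called over the 911 kb between Shh and the Lmbr1 promoter.

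The 300 bp around the centre of each peak were searched on both strands for exact motifs, a window that runs past the edges of the 250 bp peaks and leaves out the ends of the longer ones. The GLI motif GACCACCCA, the ETS motif ACCGGAAG, NRF1 (GCGCATGC), the cyclic AMP response element TGACGTCA and the CTCF core AGGNGGCAG were in none of the 6 windows, nor anywhere in the 6 whole peaks, and in 0.326%, 1.87%, 1.90%, 0.801% and 4.38% of the windows of all 15347 peaks. The SP/KLF motif GGGCGG was found in 3 of the 6 (ranks 879, 2684 and 11500) and in 49.8% of the list. In whole peaks it was in 4, since the peak of rank 927 held 3 matches outside its central window. CCAAT was in 3 windows (ranks 879, 6583 and 11500) against 21.6%. The match at rank 11500 lay outside the peak itself, and the peak of rank 927 held 2 outside its window, so that 3 whole peaks held CCAAT as well. The E-box CANNTG was in 5, all but rank 6583, by window and by whole peak, against 65.3% of windows. Of 32851 RefSeq promoters of 300 bp, 35.7% held GGGCGG, 37.4% CCAAT and 2.71% the NRF1 motif. The whole ZRS held 9 E-boxes, 2 CCAAT matches and none of the other motifs, though RefSeq annotates ETS sites in it. The exact ETS letters thus miss known sites, and their absence from the 6 peaks does not show that ETS sites are absent. All matches counted here are letters in a window, and they may overlap one another.

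Of the protein-coding genes outside the window, all 9 with a start within 500 kb of it had a peak in a TSS window, beside 44.1% of all protein-coding genes. Among them, Mnx1, a motor neuron homeobox gene, had 3 such peaks, of which the best ranked 8092, and En2, the midbrain homeobox gene, had a peak of 1600 bp at rank 3894. None of the 9 had a TSS peak ranked before that of Shh, and the best was rank 1416 at Insig1, a regulator of sterol synthesis. Gm5129 and Dnajb6 shared 1 peak, of rank 7986, so the 9 genes do not stand for 9 separate peaks. The nearest peaks outside the window were a 150 bp peak of rank 13817 in Rbm33, 21016 bp before it, and a 200 bp peak of rank 12470 at Nom1, 36860 bp after it.
A pair of loci of a similar build, chosen for limb or cartilage enhancers that lie far from their gene, were counted by the same rule. From Grem1 to Fmn1, where enhancers of the BMP antagonist Grem1 lie within its neighbour, 471 kb held 4 peaks or 0.849 per 100 kb, of which 2 were outside TSS windows and none was intergenic. From Kcnj2 to Sox9, the gene of a cartilage regulator, 1762 kb held 8 peaks or 0.454 per 100 kb, of which 7 were outside TSS windows and 5 were intergenic. Of the 9 RefSeq enhancers there, 2 overlapped a peak. From Shh to Lmbr1, 4 of the 6 peaks were outside TSS windows and none was intergenic. All 4 were in Shh.

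The other genes of the pathway gave the following picture, set beside the 44.1% of protein-coding genes given above. That share is not matched for CpG content at the TSS, with which it ran from 0.866% to 96.4%. Neither these genes nor the 9 neighbours were compared with genes of like CpG content, so no enrichment is read from their counts. Of the Hedgehog ligands and the genes for their lipid modification and release, 6 of 8 had a TSS peak, with a median best rank of 8528 among them. Shh had the earliest rank of the 8. Ihh, the ligand of growing cartilage, had a single 350 bp peak of rank 9756 that covered 2.72% of the gene. Dhh, the ligand of testis and nerve sheath, had none in a TSS window, but 2 peaks over 25.0% of the gene, the nearer 2607 bp from a start. Of the release genes, Scube3 had its best peak at rank 1093, and Scube2 had none within 93371 bp of its start.
Of the receptors and coreceptors, 6 of 7 had a TSS peak (median rank 2101). Ptch1, the receptor and a target of the pathway, had a 4300 bp peak of rank 46, and the coreceptor gene Gas1 lay wholly within a 4300 bp peak of rank 18. The exception was Hhip, the gene of a ligand-binding antagonist, with the nearest peak at 205444 bp. Of the transducers, 7 of 8 had one (median rank 3560), with Gli3, the main repressor of the pathway in limb buds, at rank 284 and Gli1, a target gene, at rank 1935. Gpr161, the gene of a ciliary receptor that restrains the pathway, had none.
Of 26 genes for factors that act on Shh transcription in the limb bud, 24 had a TSS peak (median rank 1377). Hoxd11 had a 5950 bp peak of rank 14 and Hand2 an 8450 bp peak of rank 16 that covered the whole gene, while the ZRS, where RefSeq places binding of the proteins of both, had none. Etv4 and Etv5, genes of ETS factors that restrict Shh to the posterior margin, had peaks of rank 2750 and 8120. Fgf8, expressed in the apical ectodermal ridge, had a 250 bp peak of rank 13856, and Fgf4, of the same ridge, and Gata4 were the exceptions without one.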

How the data were processed

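Samples were grouped by their labels, and the 4 HDAC1 samples and 3 inputs entered a single list. Per the labels, Bowtie2 2.2.5 was among the tools used. The authors called peaks with CisGenome on mm10. The deposited list analysed here holds positions, in another unit than counts or signal, so no test or replicate error was possible from it. Enrichment and false discovery rate per peak, which the study's source data describe, and the reads were not used here. Peak starts and ends were read as 1-based with both ends included. Genes came from GENCODE M21 (basic transcripts), enhancers and sequence from RefSeq GRCm38. A feature had a peak when at least 1 bp overlapped, and a TSS window took in 2 kb before and 1 kb after a protein-coding start. The named genes were every gene of the window, protein-coding genes within 500 kb, and lists for the Hedgehog pathway and limb Shh regulation. Members and lists were chosen with earlier results of these data known. The overlap code was checked on simulated intervals. Python 3.11.15, numpy 2.4.6 and matplotlib 3.10.9 were used. Some genes are not reported here.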

Additional observations from a re-analysis of the deposited data

How the results depend on the processing

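Of 16 alternatives, 3 were classed as moving the value and 8 as leaving it the same, though not each of the 8 stayed close to it. The other 5 concern the desert and the introns of Lmbr1, where they take a part of a set that was already at 0 and so could give nothing else. The count of 6 peaks was 12 with a flank of 100 kb in place of 20 kb, because peaks of Rbm33, Nom1 and the Mnx1 region then entered, and 3 after neighbouring peaks within 1000 bp were joined. It was 6 without a flank and 4 in the first 7673 peaks. With those first 7673 peaks alone, 30.0% of protein-coding genes had a TSS peak, in place of 44.1%. Both of these lower values were classed among the 8. When a peak had to cover the TSS base, 1 of the 3 genes had one in place of 2. The 0 for the introns of Lmbr1 is of peaks outside TSS windows, as the promoter peak reaches into intron 1. No alternative was run for CpG content, motifs or the comparison windows. No paired analysis was possible because the list gives no value per sample. For the same reason no replicate could be left out.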
